A study of Mus musculus with 219 samples.

Results

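The genes described here are 9 members of the Fanconi pathway: Fanca, Fancc, Fancg, Fancm, Fancd2, Fanci, Ube2t, Usp1 and Wdr48. They were chosen by symbol and not by a threshold on a measured value, but with earlier results of these data known. Each of the 9 symbols has a row among the 32285 genes of both count tables. RNA was sequenced from single blastomeres of mouse 2-cell embryos and from single blastocysts after intracytoplasmic sperm injection (ICSI), in which the sperm head was placed at 3 different sites of the oocyte. All embryos came from B6C3F1 oocytes and CD1 sperm and were cultured in KSOM with amino acids. The site was contralateral to the meiotic spindle, ipsilateral to it (isolateral in the labels) or equatorial.

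The blastomeres (Theiler stage 2) were separated by bisecting the 2-cell embryo, and both sisters were sequenced. Counts of sisters were added, so the embryo was the replicate, with 21 contralateral, 21 ipsilateral and 13 equatorial 2-cell embryos. Blastocysts (Theiler stage 5) were either twins, which grew from the 2 separated blastomeres of 1 embryo (6 contralateral, 7 ipsilateral and 6 equatorial pairs, counts also added), or intact, from embryos that were not bisected (11, 8 and 12). A twin thus started from a single blastomere, and each blastocyst is 1 bulk sample of all its cells, in which fewer cells of a type and less RNA per cell cannot be told apart. The labels do not say which embryos shared a session, so p-values measure the spread between these embryos.

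The Fanconi pathway handles crosslinks between DNA strands that stall the replication fork. Its core complex, to which Fanca, Fancc, Fancg and the DNA translocase Fancm belong, is a ubiquitin ligase that works with the conjugating enzyme Ube2t. Together they attach ubiquitin to the Fancd2 and Fanci pair, and the deubiquitinase Usp1, with its activating partner Wdr48, takes it off again. Embryos at the 2-cell stage still hold much RNA made by the oocyte, while blastocysts rely mostly on transcripts of their own.

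The promoter sequences of Ube2t, Fanci and Fancm are shown because of their results. Ube2t was the member called between ICSI sites, and Fanci changed most between twin and intact blastocysts. Fancm was the most abundant of the core complex members. RefSeq (GRCm38.p6) gave promoters, from 250 bases before to 50 after the start, for 7 of the 9 members, all but Usp1 and Fancd2. Capitals mark matches, on either strand, to the core letters of the site of E2F, the transcription factor of cell cycle entry, searched as TTCCCGC and, with other letters in its middle, as TTGGCGC, further as TTCGCGC, and last as TTGCCGC. The windows are chr1:134962315-134962614 for Ube2t, chr7:79392088-79392387 for Fanci and chr12:65075353-65075652 for Fancm, each on the plus strand. The Fanci window lies inside the gene's span in GENCODE M21, 79391929 to 79450264, since its RefSeq start is further downstream.
Ube2t: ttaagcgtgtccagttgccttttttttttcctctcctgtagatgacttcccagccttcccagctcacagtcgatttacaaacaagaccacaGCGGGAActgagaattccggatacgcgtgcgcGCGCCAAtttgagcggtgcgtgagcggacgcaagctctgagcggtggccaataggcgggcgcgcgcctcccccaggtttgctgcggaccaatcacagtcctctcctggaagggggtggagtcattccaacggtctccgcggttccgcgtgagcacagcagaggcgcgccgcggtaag
Fanci: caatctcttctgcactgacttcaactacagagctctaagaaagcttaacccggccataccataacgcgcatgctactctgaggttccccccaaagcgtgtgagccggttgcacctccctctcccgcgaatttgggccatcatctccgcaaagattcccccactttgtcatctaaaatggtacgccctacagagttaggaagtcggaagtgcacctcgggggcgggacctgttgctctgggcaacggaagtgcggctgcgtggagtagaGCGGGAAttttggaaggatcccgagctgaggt
Fancm: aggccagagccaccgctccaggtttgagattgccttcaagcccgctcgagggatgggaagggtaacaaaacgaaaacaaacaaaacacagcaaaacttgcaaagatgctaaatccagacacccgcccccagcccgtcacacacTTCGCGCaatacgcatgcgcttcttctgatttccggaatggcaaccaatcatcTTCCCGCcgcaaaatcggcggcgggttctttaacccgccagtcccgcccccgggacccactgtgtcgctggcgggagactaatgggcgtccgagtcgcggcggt
Such letters were found in 5 of the 7 promoters (Fancg, Fanci, Fancm, Ube2t and Wdr48) and in 9.57% of 32851 promoters of the same length. Ube2t and Fancm each held 2 matches, before the start, and Fanci 1, after it. With a further T before them (TTTCCCGC and the other 3 likewise), the letters were in the Fancg promoter alone, against 2.26% of all promoters. The CCAAT box, searched as CCAAT on both strands, was in 4 of the 7 (Fanca, Fancc, Fancm and Ube2t) and in 37.4% of all promoters, and 1 of its matches in Ube2t overlapped E2F letters. TTTGAA, the core of the cell cycle homology region, was in 0 of the 7 and in 17.9% of all. These are matches of letters and nothing about binding was measured.

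Total counts were 1255481 to 3976094 per 2-cell embryo, 1676976 to 3095134 per twin pair and 234099 to 1254428 per intact blastocyst. By their labels the 2-cell embryos stood on 2 plates (42 and 13 embryos), which differed in read layout. Column names of blastocysts carry no plate. All blastocysts were taken as plate 2, and the paper puts them in its dataset 2. The plate term of the stage fits rests on that reading. Maternal markers had a median summed level of 3819 CPM (counts scaled to a common library total) in 2-cell embryos (3174 to 4870), 552 in twin pairs (330.2 to 683) and 46.8 in intact blastocysts (0 to 403), and trophectoderm markers 97.99, 3105 and 3268, so labels and markers matched. Markers of cumulus cells, which surround the oocyte, were at medians of 29.6, 7.05 and 2.61 CPM, and in 2-cell embryos at 26.3, 28.5 and 38.1 CPM after contralateral, ipsilateral and equatorial ICSI. Markers of the 2-cell stage itself had a median of 739 CPM (346 to 1040) in equatorial embryos against 880 (613 to 1203) after contralateral and 861 (619 to 1250) after ipsilateral ICSI, and their part in the site results was not tested. Equatorial 2-cell embryos were shallower, with a mean total of 2293032 against 2575532 and 3022462. They also showed fewer genes with a count per blastomere (mean of both sisters), 11461 against 12018 and 12080.

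Usp1 (ENSMUSG00000028560, chromosome 4, 98923810 to 98935543 in GRCm38) was the most abundant member at each stage. Per length, it had 570 ± 86.5 TPM (counts per exonic length, scaled to a common total, SD, n = 55) in 2-cell embryos, above 99.1% of the genes with a count. Ube2t (ENSMUSG00000026429, chromosome 1, 134962565 to 134974162) followed with 92.8 ± 32.02 TPM and Fancm (ENSMUSG00000055884, chromosome 12, 65075603 to 65132058) with 65.2 ± 22.7 TPM. Fancc was at 25.4 ± 9.99 and Wdr48 at 24.8 ± 11.99 TPM, closer together than either SD. Fancg, Fancd2, Fanci and Fanca were at 8.78 ± 7.73, 6.13 ± 3.79, 5.07 ± 3.88 and 4.30 ± 3.56 TPM. Intervals of 1 SD around these means overlapped, and differences between the means of members were not tested. In single blastomeres Fanca had no count in 20, Fancg in 28, Fancd2 in 23 and Fanci in 25 of 110 libraries, where a count of 0 allows up to 2.24 CPM at the median depth. Wdr48 had no count in 1 of them, and the other members in 0.

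Which of these RNAs differ with the ICSI site was asked first in the added 2-cell embryos. Of the 9 members, edgeR called Ube2t, higher after contralateral than after equatorial ICSI by a factor of 1.53. It called no member in the ipsilateral embryos against equatorial or against contralateral ones. The share of all 13141 genes called was 13.2% between contralateral and equatorial ICSI (7.12% higher), so 1 of 9 is near the background. It was 6.65% for the ipsilateral embryos against the equatorial ones and 0.0% for the 2 polar sites against each other, where DESeq2 called 0 as well and 555 genes reached an unadjusted p under 0.05 by edgeR, but 1577 were called without the filter on low counts. Calls rest on edgeR's quasi-likelihood test with plate as a covariate and an adjusted p under 0.05, and both comparisons against equatorial ICSI share the same 13 equatorial embryos.

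Ube2t stood at a lowest, median and highest level of 7.96, 163 and 238 CPM in the contralateral embryos. It was at 39.98, 146 and 231 CPM in the ipsilateral and 26.3, 103 and 173 CPM in the equatorial embryos. Above the equatorial median lay 18 of 21 contralateral and 17 of 21 ipsilateral embryos, and above the highest equatorial embryo 10 and 5 of them, while 1 contralateral embryo was below the lowest equatorial one. The log2 fold change against equatorial ICSI was 0.62 (SE 0.20, edgeR adjusted p = 0.0328) after contralateral and 0.52 (SE 0.21, edgeR adjusted p = 0.119) after ipsilateral ICSI. Between contralateral and ipsilateral ICSI it was 0.10 with a 95% interval of -0.25 to 0.45. On plate 1 the means were 163 (n = 18), 157 (n = 13) and 99.2 CPM (n = 11) after contralateral, ipsilateral and equatorial ICSI, and on plate 2 they were 126.9 (n = 3), 120 (n = 8) and 115.9 CPM (n = 2). Plate 1 alone gave 0.74 against equatorial ICSI (edgeR adjusted p = 0.016). The 2-sided rank-sum test also called Ube2t higher after contralateral than after equatorial ICSI (rank-sum adjusted p = 0.0179 on added CPM and 0.0319 on added TPM). After ipsilateral ICSI the same test called it on added CPM (rank-sum adjusted p = 0.0401) but not on added TPM (rank-sum adjusted p = 0.0851). With depth covariates, namely log2 total counts and the sisters' mean number of detected genes, the contralateral change was 0.42 (edgeR adjusted p = 0.225). Both covariates differed between the sites, and their parts were not tested apart. The contralateral change also missed the threshold when equatorial embryo 33, 34 or 36 was left out, with an edgeR adjusted p of at most 0.0632. In the 48 pairs whose blastomeres both had a mitochondrial share of at most 0.02 the change was 0.65 and again missed it (edgeR adjusted p = 0.0603).

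Usp1 ran the other way, in a narrower range. Its lowest, median and highest levels were 450.3, 617 and 755 CPM after contralateral, 491, 628 and 737 CPM after ipsilateral, and 576, 698 and 987 CPM after equatorial ICSI. Only 2 of 21 contralateral and 1 of 21 ipsilateral embryos lay above the equatorial median, and 0 above the highest equatorial embryo. The edgeR log2 fold changes of -0.18 (SE 0.07, 95% interval -0.31 to -0.05) and -0.17 (SE 0.07, -0.31 to -0.03) had adjusted p = 0.0664 and adjusted p = 0.132, so neither was called. The call depended on the scale, since the 2-sided rank-sum test with 100000 permutations, adjusted over all genes, gave 0.00971 and 0.0166 on added TPM but 0.110 and 0.111 on added CPM. With depth covariates the edgeR values were -0.08 and -0.01. Equatorial embryo 36 held the highest level, and without it the contralateral change was -0.10 (edgeR adjusted p = 0.350).

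Wdr48 (ENSMUSG00000032512, chromosome 9, 119894878 to 119926587) was at a median of 62.6 CPM (18.4 to 135) after contralateral, 89.99 CPM (5.62 to 126.1) after ipsilateral and 48.1 CPM (18.3 to 108.6) after equatorial ICSI. The groups overlapped over most of their range. Its ipsilateral change of 0.54 was not called (SE 0.26, edgeR adjusted p = 0.233), but the ipsilateral embryos of the 2 plates stood apart, with a median of 107.9 CPM (53.98 to 126.1, n = 13) on plate 1 and 46.5 CPM (5.62 to 89.99, n = 8) on plate 2. Plate 1 alone gave 0.94 (edgeR adjusted p = 0.0174), while with depth covariates the ipsilateral change was negative and not called. The 2 equatorial embryos of plate 2 were at 48.1 and 91.9 CPM.

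**Figure D1:**
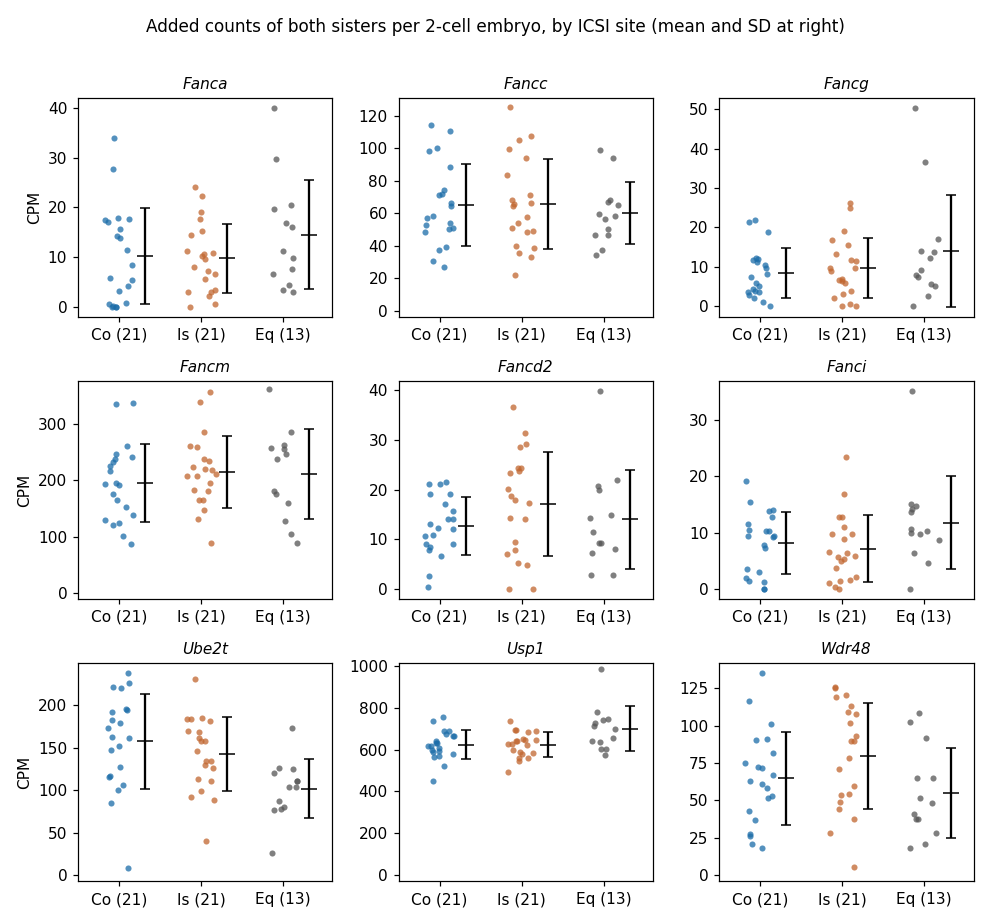
CPM (linear axis, from 0) of each member in each 2-cell embryo with both sisters added, by ICSI site: contralateral (Co, 21), ipsilateral (Is, 21) and equatorial (Eq, 13). Points are embryos and the bars at right give mean and SD. Ube2t shows 10 of 21 contralateral embryos above the highest equatorial one, and Usp1 shows the equatorial embryo at 987 CPM above all others.

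The core complex and the Fancd2 and Fanci pair gave no call by site. Their log2 fold changes of contralateral against equatorial ICSI ran from -0.72 for Fancg to 0.11 for Fancc, with standard errors of 0.15 for Fancm, 0.21 for Fancc and 0.44 to 0.56 for Fanca, Fancg, Fancd2 and Fanci. For ipsilateral against equatorial ICSI they ran from -0.87 for Fanci to 0.29 for Fancd2, and for contralateral against ipsilateral ICSI from -0.43 for Fancd2 to 0.39 for Fanci. The member median was -0.14 for contralateral and 0.11 for ipsilateral against equatorial ICSI, beside 0.00 and 0.01 over all genes tested. The interval was wide for the low members, with -1.80 to 0.36 for Fancg against equatorial ICSI (95%, contralateral embryos).

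Other genes of the pathway, 47 listed genes with a row in the tables, were called at shares near those of all genes. Of 44 tested between contralateral and equatorial ICSI, 4 were higher and 1 lower by edgeR, beside 13.2% of all genes called. Among the higher ones were the recombination protein Palb2 at 0.53, the core complex protein Cenpx at 0.44 and the translesion polymerase subunit Mad2l2 at 0.49, and the ubiquitin ligase Rfwd3 was lower, at -0.51. Against the same equatorial embryos, the ipsilateral group had 3 calls of 44, beside 6.65% of all genes, all higher, among them the nuclease Dclre1a at 0.59 and Cenpx at 0.39. The median of the 44 was 0.04 and 0.10.

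Among all genes, those whose level followed Ube2t most closely over the 55 embryos were Hprt, Rheb and Thoc1, with Spearman coefficients of 0.74, 0.74 and 0.70. For Usp1 they were Fhl3, Cnnm3 and Siah2, each at 0.57, with mean levels of 3.16, 36.8 and 1121 CPM. The coefficient of Fhl3 thus rests on few reads. Between members the coefficient ran from -0.31 (Usp1 with Wdr48) to 0.33 (Ube2t with Wdr48). These describe embryos that share plates and depth differences, and carry no test.

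How far the sisters of an embryo agree was asked from the spread within pairs on log2(CPM + 1). Usp1 had the smallest, with an SD within pairs of 0.18 over 55 pairs, and in 0 of them did the sisters differ by more than 2-fold. Counting error alone would give 0.05. Fancm followed with 0.51 and Ube2t with 0.64, against 0.10 and 0.15 from counting, and 8 and 9 pairs differed by more than 2-fold. For these 3 genes the share of the variance within sites that lay between embryos (the intraclass correlation) was 0.17 for Usp1, 0.39 for Fancm and 0.54 for Ube2t. The last ranged from 0.29 to 0.58 when single pairs were left out. Sisters share a plate and plates were not taken out, so plate differences count as variance between embryos in the correlations of 2-cell embryos. The lowest Ube2t embryo, of the contralateral group, was low in both sisters, at 15.1 and 2.21 CPM.

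In Fancc and Wdr48 the sisters differed more, with SDs within pairs of 0.95 and 1.27 against 0.17 and 0.20 from counting. Their intraclass correlations were -0.01 and 0.12, so sisters were hardly more alike than blastomeres of different embryos. The 0.17 of Usp1 was little higher, as that of Wdr48 ran from -0.02 to 0.21 when single pairs were left out. Wdr48 differed by more than 2-fold in 28 of 55 pairs. Fanci, Fanca, Fancg and Fancd2 had SDs of 1.57, 1.62, 1.87 and 2.00, and in 17, 12, 20 and 19 pairs exactly 1 sister had no count. Their intraclass correlations were 0.14, 0.18, -0.06 and -0.08. The kit carries no molecular identifiers, so counting error stands for reads and not for molecules.

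The size of the sister difference was compared between sites with limma, and no member was called, beside 0.259% of 13141 genes for the contralateral against the equatorial site, 0.221% for the ipsilateral against the equatorial site and 0.0% for both polar sites. For Usp1 the mean absolute log2 ratio of sisters was 0.20 ± 0.12 in contralateral embryos (SD, n = 21), 0.15 ± 0.10 in ipsilateral embryos (n = 21) and 0.33 ± 0.21 in equatorial embryos (n = 13). The differences from equatorial ICSI were -0.14 (limma adjusted p = 0.411) and -0.18 (limma adjusted p = 0.183). Over all genes tested the medians of these differences were -0.08 and -0.12. When the sister differences of 200 genes were widened 2-fold in a simulation, limma recovered 3%, 4.5% and 16% in the 3 comparisons. A missing call here thus says little.

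**Figure D2:**
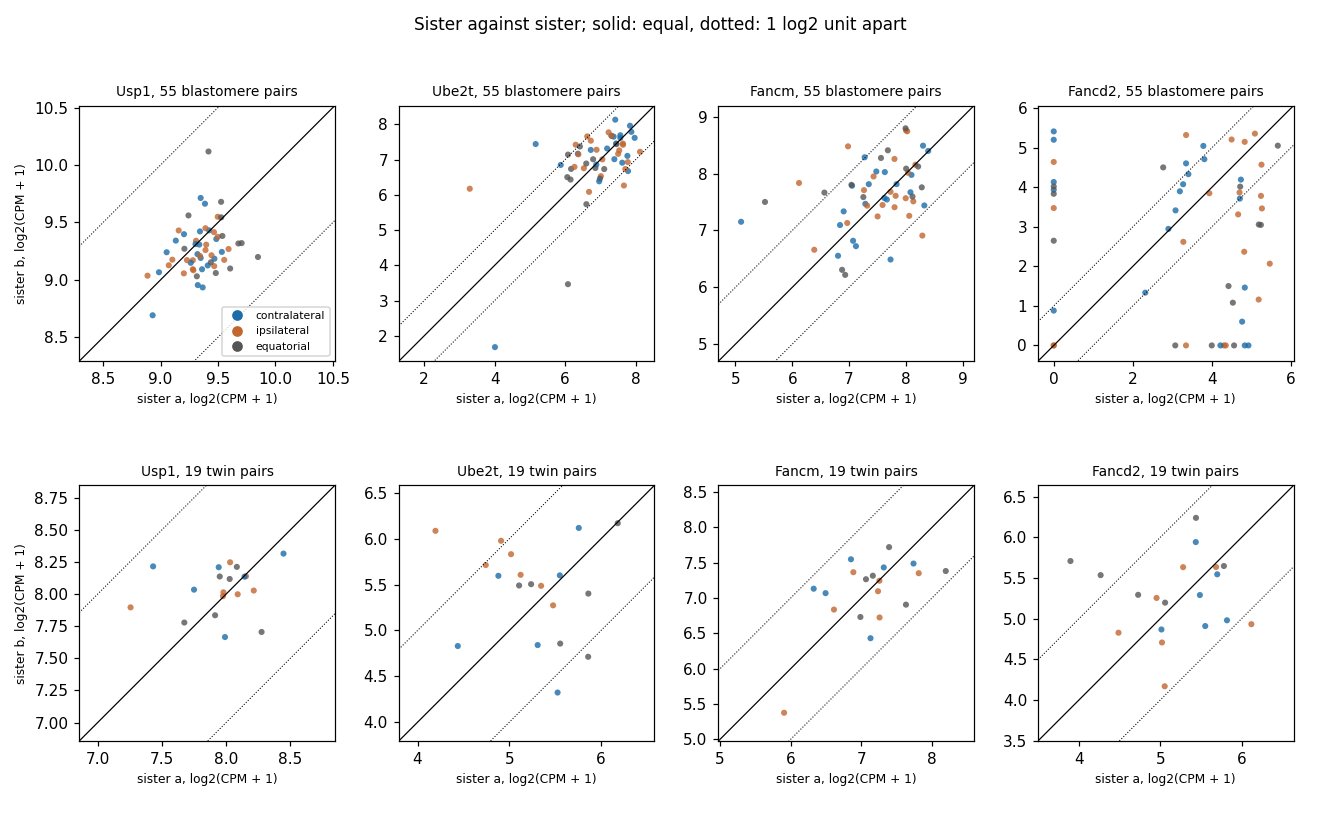
One sister against the other on log2(CPM + 1) for Usp1, Ube2t, Fancm and Fancd2, in 55 blastomere pairs (top) and 19 twin pairs (bottom), coloured by ICSI site; the solid line marks equal levels and the dotted lines 1 log2 unit apart. Usp1 pairs all lie within the dotted lines, while 19 blastomere pairs have Fancd2 at 0 in 1 sister and twin pairs have it at 0 in none.

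Most members were lower in intact blastocysts than at the 2-cell stage, and fewer in twins. In intact blastocysts 7 of 9 were lower than in 2-cell embryos and 0 higher, where 46.3% of 16731 genes were called lower and 75.7% called in either direction. In twin pairs 4 were lower and 1, Fancd2, higher, where 43.4% of genes were called lower, 31.7% higher and 75.1% in either direction. In simulated counts these stage fits called unchanged genes more often than the threshold allows (30.7% and 25% of calls), so calls near it are less firm. The median log2 fold change over all genes was itself -0.59 for intact blastocysts and -0.39 for twins. Values relative to that median are therefore given, here or beside the fitted ones. In intact blastocysts they were -2.02 for Fancc, -1.49 for Fanci, -1.09 for Wdr48 and -1.07 for Fancm. Fanca, Fancg and Fancd2 were there at -0.59, -0.32 and 0.34. In twins they were -1.08 for Fancc, -0.47 for Wdr48, -0.19 for Fancg, 0.29 for Fanci and 0.81 for Fanca. Both comparisons share the 2-cell embryos. Maternal markers were lower in blastocysts too, and their part in these changes was not tested. On plate 2 alone, with 13 2-cell embryos, the same counts of 7 and 4 lower and 1 higher were found. The median gene was there at -0.13 for intact blastocysts and 0.04 for twins. Relative to it, the twin values were -1.39 for Fancc, -1.04 for Wdr48, -0.66 for Fancg, -0.19 for Fanci and 0.46 for Fanca. The relative values thus depended on the samples fitted.

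The other pathway genes were counted in the same 2 comparisons. Of 47, edgeR called 29 lower and 9 higher in intact blastocysts, with a median of -1.28. Of all genes 75.7% were called there and 46.3% were lower, with a median of -0.59. In twins 21 of the 47 were lower and 11 higher, with a median of -0.50. Of all genes 75.1% were called there, 43.4% lower and 31.7% higher, with a median of -0.39. Among the lower ones were the recombination mediator Brca2 (-3.99 and -3.11), Usp46 (-4.47 and -3.73) and Wdr20 (-2.62 and -2.66), the former another deubiquitinase that Wdr48 activates and the latter its further partner, and the core complex protein Cenps (-2.61 and -1.87).

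Usp1 had 450.3 to 987 CPM in the 55 2-cell embryos with a median of 636, 193 to 332 CPM in the 19 twin pairs with a median of 263, and 51.3 to 262 CPM in the 31 intact blastocysts with a median of 170.4. Every twin pair and every intact blastocyst lay below the lowest 2-cell embryo. The log2 fold change was -2.28 in intact blastocysts (SE 0.11, edgeR adjusted p = 2.38e-39), a 4.85-fold lower level, and -1.52 in twins (SE 0.12, edgeR adjusted p = 1.94e-22), 2.86-fold lower. Relative to the median gene the changes were -1.68 and -1.12. It kept the first rank among the members per length, at 198 ± 24.3 TPM in twins and 126.02 ± 44.5 TPM in intact blastocysts.

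Ube2t fell too, from a median of 135 CPM (7.96 to 238) in 2-cell embryos. It was at 40.95 CPM (23.4 to 71.3) in twins and 18.4 CPM (0 to 59.8) in intact blastocysts. Whether its fall differed from that of Usp1 was not tested. All twin pairs and intact blastocysts were below the 2-cell median, but they overlapped the lowest 2-cell embryos. It was 7.05-fold lower in intact blastocysts (log2 -2.82, SE 0.25, edgeR adjusted p = 4.56e-19) and 3.13-fold lower in twins (log2 -1.65, SE 0.27, edgeR adjusted p = 6.12e-08), or -2.23 and -1.25 relative to the median gene. Wdr48, of whose exonic length 14.9% is shared with Gorasp1, went from a mean of 68.2 CPM to 32.4 in twins and 19.7 in intact blastocysts, with log2 fold changes of -0.87 (edgeR adjusted p = 0.0143) and -1.69 (edgeR adjusted p = 4.08e-07). With total counts as the scaling its twin change was -0.64 (edgeR adjusted p = 0.0746).

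In the core complex, Fancc (ENSMUSG00000021461, chromosome 13, 63285043 to 63497278) fell from a mean of 64.04 CPM to 27.4 in twins (log2 -1.48, edgeR adjusted p = 5.60e-05) and 12.8 in intact blastocysts (log2 -2.62, edgeR adjusted p = 5.71e-13). Exons of Gm16133 overlap 16.4% of its exonic length, so reads there cannot be assigned by strand. Fancm went from 207 to 65.6 CPM in intact blastocysts, -1.66 on the log2 scale (edgeR adjusted p = 6.00e-12). In twins it averaged 143 CPM, and its change of -0.44 was not called (edgeR adjusted p = 0.0729) and lay 0.05 below the median gene. It was called lower with DESeq2 (-0.50), RLE scaling (-0.50), no plate term (-0.79) and twin a alone (-0.54). On plate 2 alone it was -0.30, or -0.34 relative to the median gene there. Fanca (ENSMUSG00000032815, chromosome 8, 123268300 to 123318576), which shares 10.5% of its exonic length with Zfp276, was lower in intact blastocysts by 1.19 on the log2 scale (edgeR adjusted p = 0.0254), a call lost with total counts and without the 6 intact blastocysts under 500000 counts. Fancg (ENSMUSG00000028453, chromosome 4, 43002343 to 43010506), at means of 10.2, 10.0 and 8.76 CPM, had changes of -0.58 in twins and -0.92 in intact blastocysts that were not called. They were -0.33 and -0.66 without the plate term and -0.35 and -0.55 with total counts, so their size depended on the fit.

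Of the Fancd2 and Fanci pair, Fancd2 (ENSMUSG00000034023, chromosome 6, 113531682 to 113597017) was at a median of 14.05 CPM (0 to 39.8) in 2-cell embryos, 37.8 CPM (24.5 to 59.6) in twin pairs and 13.3 CPM (0 to 59.6) in intact blastocysts. All 19 twin pairs lay above the 2-cell median and 9 above the highest 2-cell embryo. It was 2.41-fold higher in twins than in 2-cell embryos (log2 1.27, SE 0.46, edgeR adjusted p = 0.0104), or 1.66 relative to the median gene, and was not called in intact blastocysts (log2 -0.26, SE 0.41, edgeR adjusted p = 0.583). Fanci (ENSMUSG00000039187, chromosome 7, 79391929 to 79450264) fell in intact blastocysts, from a mean of 8.68 to 4.46 CPM (log2 -2.09, edgeR adjusted p = 3.43e-05), and with -1.47 without the plate term. In twins it had a mean of 15.04 CPM and a log2 fold change of -0.10 with plate as a covariate (SE 0.51) and 0.51 without, so its direction there depended on the plate term. Exons of Polg overlap 15.9% of its exonic length.

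**Figure D3:**
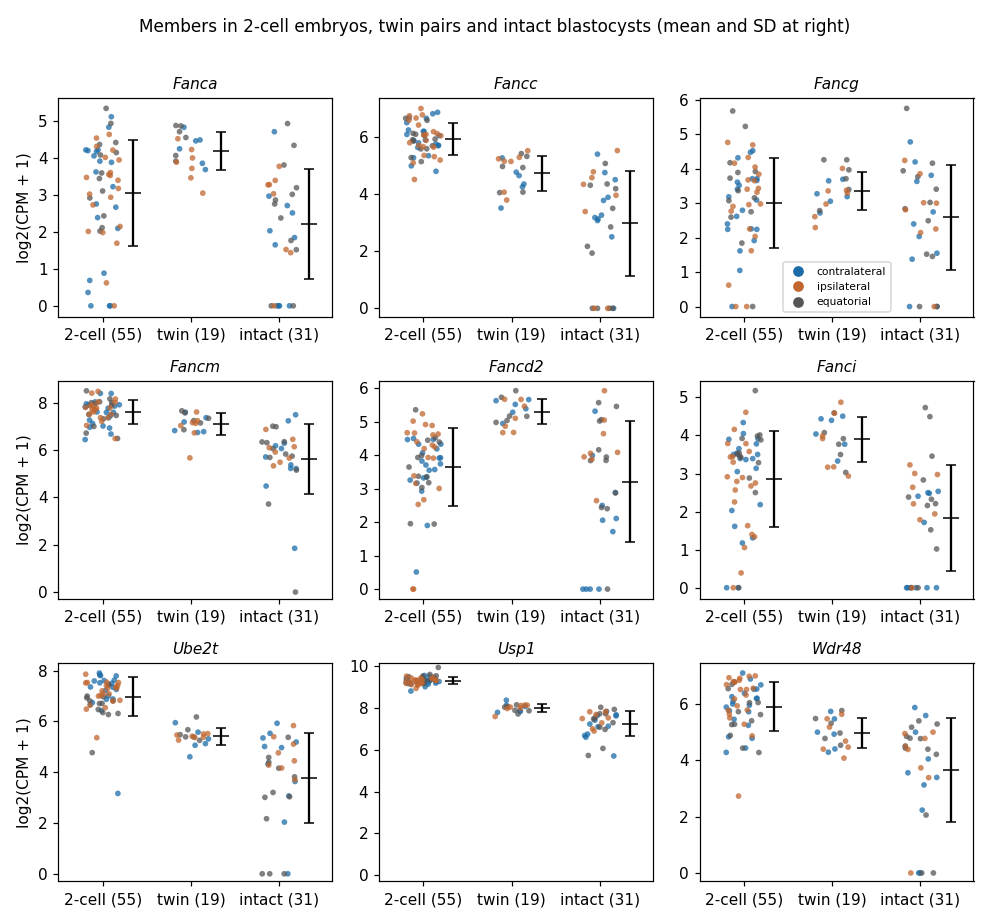
log2(CPM + 1) of each member in 2-cell embryos (55), twin pairs (19) and intact blastocysts (31); points are embryos coloured by ICSI site and the bars at right give mean and SD. Usp1 falls without overlap from 2-cell embryos to both kinds of blastocyst, whereas Fancd2 is highest in twin pairs.

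Between twin and intact blastocysts, 8 of the 9 members were higher in twins, beside 18.7% of all genes higher, 9.27% lower and 28% in either direction. Fancg was the exception (log2 0.33, edgeR adjusted p = 0.687). The largest change was that of Fanci at 1.98 (SE 0.42, edgeR adjusted p = 0.000105), followed by Fanca at 1.60, Fancd2 at 1.52, Fancm at 1.22, Ube2t at 1.17, Fancc at 1.14 and Wdr48 at 0.82. Usp1 was 1.70-fold higher (log2 0.76, SE 0.09, edgeR adjusted p = 1.40e-10), with 10 of 19 twin pairs above the highest intact blastocyst. Fancm had 4 and Ube2t 2 of 19 twin pairs above it. The member median of 1.17 stands beside 0.14 over all genes and 0.63 over the 47 other pathway genes. Members and lists were chosen with earlier results of these data known, so this contrast cannot show that the members stand out. Of the 47, 22 were higher and 4 lower, among the former Brca2 at 0.88, Pcna at 0.81 and the helicase Blm at 0.79.

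Depth moved with this comparison, since every twin pair, with 2 libraries added, had more counts than any intact blastocyst. Single libraries overlapped, with 713410 to 2161062 counts in twins (median 1093478) and 234099 to 1254428 in intact blastocysts (median 705837). No twin library lacked a member, while among 31 intact blastocysts Fanci had no count in 9, Fanca and Fancc in 7 each, Fancg, Fancd2 and Wdr48 in 5 each, Ube2t in 4, Fancm in 1 and Usp1 in 0, where a 0 allows up to 4.25 CPM at the median depth. Maternal markers were higher in twins by their medians of 552 against 46.8 CPM, and so were inner cell mass markers, at 671 (560.5 to 862) against 358 CPM (121.1 to 725). The part of these in the members' change was not tested. With twin a of each pair in place of both, the same 8 members were called, Usp1 at 0.60 and Fanci at 1.90. Among all genes called, 3127 were higher and 1551 lower with TMM scaling, and 2319 and 2143 with RLE scaling, where the median gene moved to 0.00. The call of Wdr48 was lost with RLE scaling (log2 0.67, edgeR adjusted p = 0.0613), with total counts (log2 0.70, edgeR adjusted p = 0.0522) and without intact blastocysts under 500000 counts (log2 0.55, edgeR adjusted p = 0.120). Without those blastocysts Usp1 was still called, at 0.50.

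**Figure D4:**
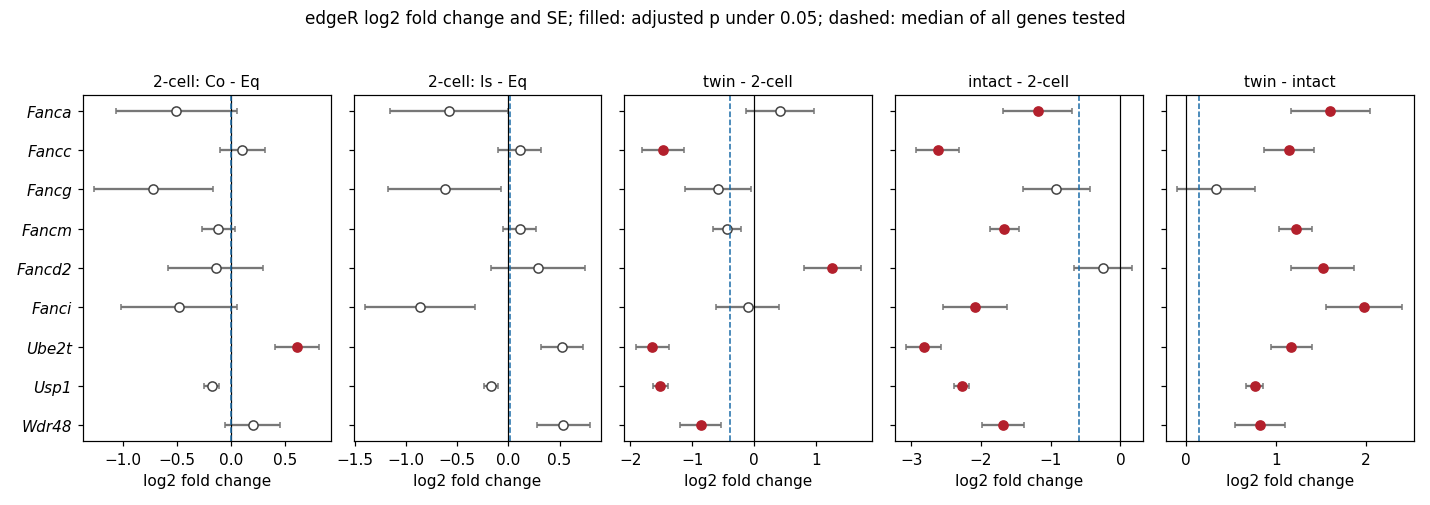
log2 fold changes of the 9 members with standard errors by edgeR, for contralateral (Co) and ipsilateral (Is) against equatorial (Eq) ICSI in 2-cell embryos and for the stage comparisons; filled points have an adjusted p under 0.05 and the dashed line is the median of all genes tested. Filled are Ube2t in the first panel, 5 members in the twin, 7 in the intact and 8 in the twin against intact comparison.

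Whether the site still marked the members in blastocysts was asked within each kind. In twin pairs 0 of 9 members and 0.0% of 10995 genes were called in each of the 3 comparisons by edgeR, while an unadjusted p under 0.05 was reached by 728, 426 and 754 and DESeq2 called 9, 1 and 1. Members' log2 fold changes ran from -0.67 to 0.47. Ube2t was at -0.23 for contralateral against equatorial ICSI (95% interval -0.67 to 0.21) and Usp1 at 0.10 (-0.12 to 0.32). The difference between the 2-cell and the twin site effect was 0.88 for Ube2t (SE 0.51, edgeR adjusted p = 0.713) and -0.25 for Usp1 (SE 0.22, edgeR adjusted p = 0.911), so a change of the site effect was not shown for either, beside 0.179% of all genes called. For the ipsilateral site the differences were 0.72 (SE 0.50) and -0.20 (SE 0.21), not called either, beside 0.263% of all genes.

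In intact blastocysts 6 members passed the filter on low counts, and 0 of them and 0.0% of 9165 genes were called by edgeR, while an unadjusted p under 0.05 was reached by 629, 338 and 522 and DESeq2 called 1, 0 and 0. Ube2t averaged 25.7 CPM after contralateral, 28.1 CPM after ipsilateral and 11.6 CPM after equatorial ICSI, a log2 fold change of 1.18 for the first against the last (SE 0.59, edgeR adjusted p = 0.723). Fancd2 averaged 6.66, 22.5 and 18.8 CPM in the same order, with -1.39 for contralateral against equatorial ICSI (SE 0.64, edgeR adjusted p = 0.697).

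In twin blastocysts the sisters had each grown for days on their own. Their SDs within pairs on log2(CPM + 1) were 0.22 for Usp1, 0.35 for Fancm and 0.51 to 0.89 for the others. Fancd2 went from 2.00 between blastomeres to 0.51 between twins, while its level was higher. The intraclass correlation was 0.58 for Fancm (0.29 to 0.62 when single pairs were left out) and 0.49 for Fanci. That of Ube2t was -0.13 in twins (-0.31 to 0.05), beside 0.54 in 2-cell embryos (0.29 to 0.58). The 2-cell value includes plate differences, while all twins were taken as plate 2. The difference between the stages was not tested.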

How the data were processed

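RNA of single blastomeres and single blastocysts was converted to cDNA with the SMART-Seq Single Cell kit, which has no molecular identifiers, and Nextera XT libraries were read on a NovaSeq instrument. The authors used Trimmomatic, cut reads to 100 bases of read 1 and counted them without strand with STAR (2.7.10b in the submitters' processing notes, with FastQC 0.12.1) on GRCm38 with GENCODE M23. They deposited raw counts per gene and library. Pairs with a blastomere under 9500 detected genes were left out, which left 55 of 62. The study's mitochondrial limit was read as a fraction of 0.02 and not a percentage, which is uncertain, and used only as an alternative, with 48 pairs. Counts of both sisters or twins were added per embryo. CPM and TPM (exonic lengths of GENCODE M21) were computed here. Site comparisons used edgeR 4.0.16 (TMM, expression filter, quasi-likelihood, plate as a covariate in 2-cell embryos), stages were fitted together with plate as a covariate, and sister differences used limma 3.58.1, all with Benjamini-Hochberg adjustment at 0.05. DESeq2 1.42.0 was an alternative, and R 4.3.3, Python 3.11.15, numpy 2.4.6, pandas 2.3.3, scipy 1.17.1 and matplotlib 3.10.9 were used.

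The 9 members and the lists were chosen with earlier results of these data known. The text names all 9 members, up to 5 called genes with the smallest p per comparison from the list of other pathway genes, and the 3 genes nearest by Spearman coefficient to Usp1 and to members called between sites, while 1 further item is not reported here. Leaving out single embryos was added after the data were seen. In simulated 2-cell counts with a 2-fold change put into 200 genes, 42.3% were recovered by edgeR for contralateral against equatorial ICSI, 43.0% for ipsilateral against equatorial and 45.1% for contralateral against ipsilateral. For intact blastocysts against 2-cell embryos, twins against 2-cell embryos and twins against intact blastocysts the shares were 31.3%, 30.9% and 43.8%, and 30.7%, 25% and 22.2% of the calls were unchanged genes, above the nominal 5%. In the 3 site comparisons of intact blastocysts 23.1%, 12.1% and 18.4% were recovered, and of sister differences 3%, 4.5% and 16% by limma. Intervals and floors cover counting error or the spread between embryos as stated.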

Additional observations from a re-analysis of the deposited data

Results flagged for a closer look

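Of 36 groups of 4 to 10 embryos tested for a sample far from the rest (9 members, with the twin groups and the ipsilateral intact group), 1 held one, while chance alone gives about 1 in 20. It was Usp1 in the ipsilateral twin pairs, where 1 pair stood at 193 CPM and the other 6 at 252 to 283 CPM. The cause was not tested.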

How the results depend on the processing

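Of the members' values under the alternatives, 777 stayed the same, 10 gained and 11 lost a call and 26 changed sign. A fold change or difference stayed the same if it kept its direction and side of the threshold. For the rank-sum tests the direction was that of the log2 ratio of means and not of the ranks. The counts include the fits for Ube2t and Usp1 that leave out single embryos. They also include SDs within pairs at a pseudocount of 5 CPM, the same if they moved by less than their spread over pairs. In 2-cell embryos the genes called between contralateral and equatorial ICSI were 3930 without a filter on low counts and 1104 with 48 pairs. Between ipsilateral and equatorial ICSI they were 2603 without the filter, 61 with depth covariates and 1527 and 1412 by rank sum on TPM and CPM, and between contralateral and ipsilateral ICSI 1577 without the filter. In twins DESeq2 called 9, 1 and 1 and edgeR without the filter 1 between ipsilateral and equatorial ICSI, and in intact blastocysts DESeq2 called 1. Sister differences were called for 22, 16 and 0 genes (contralateral) and 12, 4 and 1 (ipsilateral against equatorial) with a pseudocount of 5, on plate 1 and with 62 pairs. The contralateral difference between 2-cell and twin site effects called 19 genes without plate. The split of twin against intact calls was 2173 higher and 2649 lower with DESeq2 and 2526 and 1962 with total counts.

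Signs changed for Wdr48 with depth covariates (-0.28 contralateral, -0.10 ipsilateral against equatorial). They changed for Fancm, ipsilateral against equatorial, with -0.056 under depth covariates and -0.033 as the log2 ratio of mean added TPM. Between contralateral and ipsilateral ICSI they changed for Fanca (-0.038, 62 pairs), Fancc (0.053 with 48 pairs, 0.0077 with DESeq2, 0.0016 without filter, 0.0014 without plate, 0.0079 with RLE) and Usp1 (0.015 without plate, 0.0084 on plate 1, 0.00045 with RLE). In the sister differences they changed with 62 pairs for ipsilateral against equatorial ICSI in Fancm (0.10), Ube2t (-0.24) and Wdr48 (0.28), and for contralateral against ipsilateral ICSI in Fancm (-0.15), Fanci (-0.043) and Usp1 (-0.043). On plate 1 they changed for Ube2t (-0.054), Fancc (0.29) and Fancd2 (-0.11). Between stages Fancd2 in intact blastocysts was 0.20 with at least 500000 counts and 0.078 with total counts, and Fanci in twins 0.51 without plate and 0.13 with total counts. None of these values was called, and the causes were not tested.

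Leaving out each embryo in turn between contralateral and equatorial ICSI, Ube2t was called in 31 of 34 fits (log2 0.55 to 0.70) and Usp1 in 2 (log2 -0.19 to -0.10), with 1420 to 2197 genes called. No paired analysis was possible because embryo numbers are not shared between the groups. Members under about 20 CPM had no count in some of the single blastomeres and intact blastocysts, and the part of depth in this was not tested.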

Other observations

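The 7 pairs of blastomeres left out for few detected genes held Usp1 at 548 to 980 CPM (median 816) and Ube2t at 53.3 to 154 CPM.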
